A study of Mus musculus with 18 samples.

Results

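The genes that control the passage from G1 into S phase were examined in mouse induced pluripotent stem cells (iPSCs) that were induced into epiblast-like cells (EpiLCs). The set holds 10 genes, found by their symbols among the 45706 genes of the count table: the D-type cyclins Ccnd1, Ccnd2 and Ccnd3, the E-type cyclins Ccne1 and Ccne2, the inhibitors of cyclin-dependent kinases (CDKs) Cdkn1b, Cdkn2a and Cdkn2b, and Rb1 and Rbl2 of the retinoblastoma family. All 10 were among the 16619 genes with enough counts to be tested, and none of them was at 0 in any library. RNA was sequenced at 0 h and 24 h of induction from 3 lines, a single clone of Hmga2 wt iPSCs and the Hmga2 KO clones #1 and #2 (KO#1 and KO#2). Each of the 6 groups had 3 libraries, which the labels give as biological replicates, so that there were 18 in total. Cells taken at 0 h were growing on inactivated fibroblast feeders in serum with leukaemia inhibitory factor and inhibitors of MEK and GSK3. At 24 h they had been replated on a basement membrane matrix in a medium with Activin A and bFGF. Time, medium and substrate thus changed together and cannot be told apart, and neither can the loss of Hmga2 and other differences between single clones.

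As background, D-type cyclins bind and activate Cdk4 and Cdk6, and E-type cyclins activate Cdk2. Both kinase activities phosphorylate Rb1 and its relatives, the pocket proteins, which otherwise hold E2F factors inactive and keep S phase genes off. Cdkn1b (p27Kip1) binds cyclin-CDK complexes, whereas the Ink4 proteins encoded by Cdkn2a and Cdkn2b bind Cdk4 and Cdk6 themselves. Mouse embryonic stem cells are known for a short G1 phase, and epiblast cells for rapid division. The length of G1 in the cells used here, which grew with inhibitors of MEK and GSK3 at 0 h, is not given in the sources.

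Total counts ranged from 3466436 to 23872837 per library, and the members had between 6 and 4733 counts in a library. Levels are given as CPM, counts relative to a library total that was scaled by the trimmed mean of M-values (TMM). A level of 3 counts, taken as the smallest detectable, lay between 0.116 and 0.983 CPM. Hmga2, the targeted gene, was at 17.4, 13.3 and 22.3 CPM in wt cells at 0 h, at 10.2, 4.59 and 1.75 CPM in KO#1 and at 4.10, 1.84 and 8.24 CPM in the libraries labelled KO#2. After 24 h it was at 5.86, 5.51 and 5.93 CPM in wt cells, 3.67, 2.25 and 0.871 CPM in KO#1 and 10.4, 3.02 and 3.47 CPM in the libraries labelled KO#2, so that 1 of these lay above every wt library at that time. What the KO alleles lack is not given in the sources used here, so that counts over the whole gene are a weak check, and these libraries are called below by their label. For the suppression of Hmga2 the paper refers to a western blot of the protein in wt and KO cells. Where a call is said to be lost without several libraries, each was left out on its own, and the log2 fold change without a library is given where it moved by over 1.5 times. Calls under the alternatives were counted at an adjusted p under 0.05, and the stricter threshold is treated apart. A lower Hmga2 level than in wt cells was called in the KO#2-labelled libraries at 0 h (log2 fold change -1.90 ± 0.62, adjusted p = 0.023), and this call was lost with library totals alone (adjusted p = 0.0582) and without wt 0 h replicate 3 (adjusted p = 0.0767), KO#2 0 h replicate 1 (adjusted p = 0.0705) and KO#2 0 h replicate 2 (adjusted p = 0.0863). In KO#1 it was not called at 0 h (-1.71 ± 0.63, adjusted p = 0.124), where it was called with no filter on low counts (adjusted p = 0.000524) and without KO#1 0 h replicate 1 (-2.59, adjusted p = 0.0437). Nor was it called in KO#1 at 24 h (-1.36 ± 0.64, adjusted p = 0.22), but it was with no filter on low counts (adjusted p = 0.0123) and with the replicate number as a block in these groups alone (adjusted p = 0.0083). Of 9 naive genes, 7 fell from 0 h to 24 h in each line, and of 8 formative and primed genes 7 rose in each line, while of the 5 general pluripotency genes, all above 0 in every library, 3 fell and 1 rose in wt cells and 2 fell and 1 rose in each clone. Counts on protein-coding genes made up 41.3% to 77.4% of each wt and KO#1 library and 76.3% to 84.7% of each KO#2-labelled library.

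The promoters of the members that carry the results below are shown first, as the 300 bases from 250 before to 50 after a start site, taken from RefSeq on GRCm38.p6. Promoters of 6 of the 10 members were in that table, in 8 windows. Ccne1 and Cdkn1b are shown because they had the largest called rise and the largest called fall of the set in wt cells, and Cdkn2a and Cdkn2b because they lie side by side, with 11645 bases between them, and were called different between a KO clone and wt cells. Cdkn2a has 2 start sites that lie 12427 bases apart, the upstream one for p19Arf and the downstream one for p16Ink4a, and counts per gene cannot separate the proteins. Capitals mark the GC box GGGCGG, on either strand, and in the upstream Cdkn2a window also 1 of the E2F words searched.
Ccne1, chr7:38107441-38107740, minus strand: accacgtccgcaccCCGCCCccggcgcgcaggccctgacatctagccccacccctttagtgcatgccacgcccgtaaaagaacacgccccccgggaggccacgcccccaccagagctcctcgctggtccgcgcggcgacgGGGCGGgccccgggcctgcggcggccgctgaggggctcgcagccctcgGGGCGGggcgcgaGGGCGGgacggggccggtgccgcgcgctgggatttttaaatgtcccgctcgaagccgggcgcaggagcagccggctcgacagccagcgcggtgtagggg
Cdkn1b, chr6:134920151-134920450, plus strand: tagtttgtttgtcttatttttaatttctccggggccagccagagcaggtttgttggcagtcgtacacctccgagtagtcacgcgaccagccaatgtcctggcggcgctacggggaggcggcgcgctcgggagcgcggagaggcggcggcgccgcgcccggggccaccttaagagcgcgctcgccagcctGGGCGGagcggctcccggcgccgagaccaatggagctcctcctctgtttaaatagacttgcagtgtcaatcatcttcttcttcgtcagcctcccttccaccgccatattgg
Cdkn2a, upstream start, chr4:89294570-89294869, minus strand: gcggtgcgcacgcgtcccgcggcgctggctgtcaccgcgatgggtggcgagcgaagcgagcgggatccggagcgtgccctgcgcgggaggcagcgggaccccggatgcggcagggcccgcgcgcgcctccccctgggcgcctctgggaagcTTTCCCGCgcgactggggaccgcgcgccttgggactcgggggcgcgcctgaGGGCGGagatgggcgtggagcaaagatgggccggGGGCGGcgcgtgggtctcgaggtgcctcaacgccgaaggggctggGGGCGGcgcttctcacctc
Cdkn2a, downstream start, chr4:89282143-89282442, minus strand: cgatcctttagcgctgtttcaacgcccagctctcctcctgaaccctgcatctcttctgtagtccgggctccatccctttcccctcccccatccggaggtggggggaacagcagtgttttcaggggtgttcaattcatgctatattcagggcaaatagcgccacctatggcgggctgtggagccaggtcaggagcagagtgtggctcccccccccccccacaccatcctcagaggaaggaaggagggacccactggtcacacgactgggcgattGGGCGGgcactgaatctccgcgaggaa
Cdkn2b, chr4:89310983-89311282, minus strand: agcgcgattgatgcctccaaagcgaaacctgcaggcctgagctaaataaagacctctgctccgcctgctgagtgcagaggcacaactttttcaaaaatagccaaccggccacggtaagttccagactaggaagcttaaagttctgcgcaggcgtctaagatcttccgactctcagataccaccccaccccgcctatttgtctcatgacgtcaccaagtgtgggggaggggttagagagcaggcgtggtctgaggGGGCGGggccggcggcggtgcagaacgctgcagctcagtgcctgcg
The Ccne1 window held 4 GC boxes, the upstream Cdkn2a window 3, and the other windows printed here 1 each. GC boxes were in 35.7% of all 32851 promoters of the table. The E2F words TTTCCCGC, TTTCGCGC, TTTGGCGC and TTTGCCGC, searched on both strands, were in 2.26% of all promoters. Among the 8 windows of the members, 1 such word, TTTCCCGC, was found, with its first base 99 bases before the upstream start site of Cdkn2a, and it overlapped no GC box. Ccnd1, Ccnd2, Ccne2 and Rb1 had no window and were not searched. The GC content was 76.0% in the Ccne1 window, 62.0% in that of Cdkn1b, 77.0% and 60.3% in those of Cdkn2a and 57.7% in that of Cdkn2b, against a median of 52.7% over all promoters. These matches describe the windows and say nothing of which factor is bound.

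Across the set, levels of different genes were compared per kilobase of exon. The length was taken over all exon bases of a gene in any annotated transcript. It was 8775 bases for Ccnd3 (21 transcripts), 9409 for Ccnd2 (8), 4709 for Ccnd1 (3) and 2662 for Ccne1 (5). Such a length can exceed that of any single RNA, so that the order of genes depends on it. In wt cells at 0 h, Ccnd3 had the highest mean, 26.4 ± 8.58 CPM per kilobase (SD, n = 3), and no library of the next gene in order, Ccne1 with 11.7 ± 2.71, reached its range. Cdkn1b (9.44 ± 0.931), Ccnd1 (7.59 ± 2.05) and Cdkn2a (7.25 ± 2.42) followed in CPM per kilobase, and each overlapped its neighbour in the order. The lower end held Ccnd2 (2.41 ± 1.05), Cdkn2b (1.52 ± 0.340), Ccne2 (0.915 ± 0.318), Rb1 (0.820 ± 0.291) and Rbl2 (0.753 ± 0.143 CPM per kilobase), whose ranges overlapped from one to the next. Ccnd3 also led the order at 0 h in KO#1 and in the KO#2-labelled libraries, overlapping Ccne1 in KO#1. After 24 h the first place was taken by Ccne1 in all 3 lines, with 85.8 ± 17.8 CPM per kilobase for wt cells, 77.9 ± 22.1 for KO#1 and 49.1 ± 6.76 for the KO#2-labelled libraries, without overlap with the next gene. In wt cells at 24 h Ccnd1 (16.0 ± 3.46) and Ccnd3 (15.9 ± 1.49 CPM per kilobase) came next and overlapped. Before division by length they were at 75.2 ± 16.3 and 139 ± 13.1 CPM. Rbl2 was last in all 3 lines, but in KO#1 it overlapped Ccnd2 (1.106 ± 0.063 and 1.109 ± 0.43 CPM per kilobase).

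**Figure D1:**
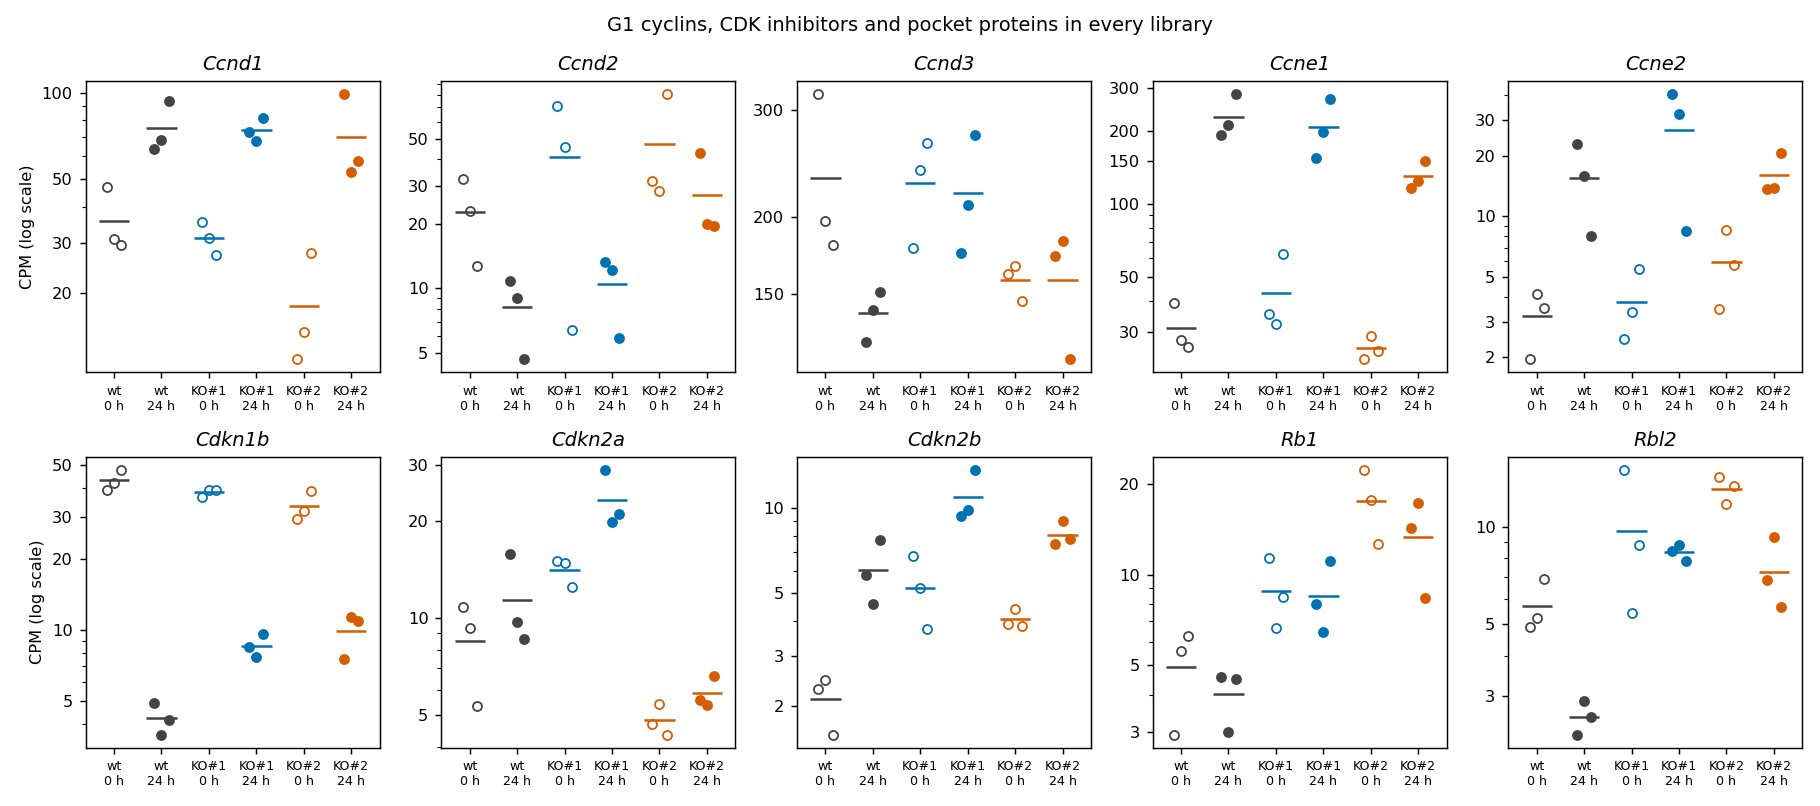
Level of each of the 10 genes in every library, in CPM on a log axis with its own range in each panel. Open points are 0 h and filled points 24 h libraries, the horizontal line is the mean of 3, and colours mark wt (grey), KO#1 (blue) and KO#2-labelled libraries (orange). Ccne1 is higher and Cdkn1b lower at 24 h than at 0 h in all 3 lines, without overlap.

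The first question was how these genes changed over 24 h of EpiLC induction in each line. Genes were called at a Benjamini-Hochberg adjusted p under 0.05 of the edgeR quasi-likelihood test, over all 16619 genes, and all log2 fold changes are given ± SE from that fit. In wt cells 4 of the 10 members rose, where 26.0% of all genes rose, and 3 fell, where 24.7% of all genes fell. In KO#1 5 members rose against 20.1% of all genes, and 2 fell against 20.6%. In the KO#2-labelled libraries 4 rose against 12.7%, and 2 fell against 13.3%. The cyclins Ccnd1, Ccne1 and Ccne2 and the inhibitor Cdkn2b rose in all 3 lines, which 7.61% of all genes did, and Cdkn1b fell in all 3, which 8.33% did. Over the members, wt cells had a median log2 fold change of 0.06, KO#1 of 0.33 and the KO#2-labelled libraries of 0.14, beside 0.03, 0.00 and -0.03 over all genes tested. In these bulk libraries, fewer cells in which a gene is active and less RNA of it per cell cannot be told apart.

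**Figure D2:**
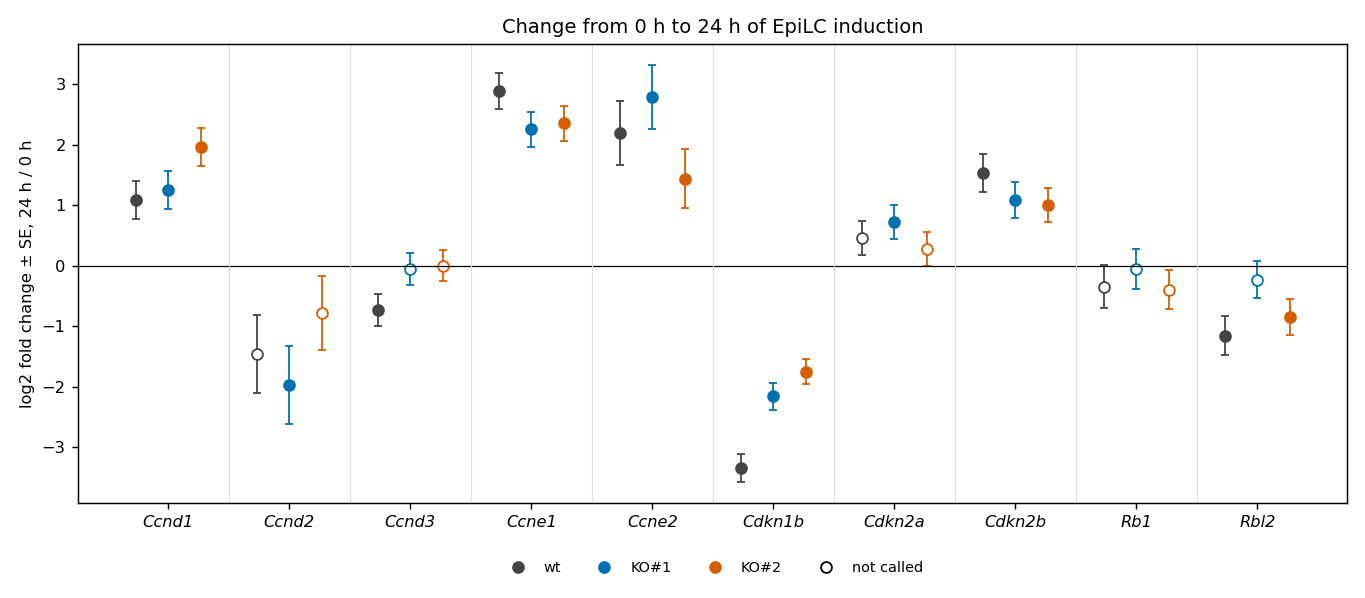
Log2 fold change of each gene from 0 h to 24 h in wt cells, KO#1 and KO#2-labelled libraries, with bars of 1 SE from the edgeR fit. Filled points passed an adjusted p under 0.05 and open points did not. Ccne1 lies between 2.25 and 2.89, and Cdkn1b between -3.34 and -1.75.

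The next question was how the KO clones differed from wt cells at the same time. At 0 h, 1 member was called higher in KO#1 and 0 lower, where 3.99% and 2.68% of all genes were. By the edgeR test 4 members, the called one included, had an unadjusted p under 0.05 there. In the KO#2-labelled libraries 3 members were higher and 2 lower at 0 h, against 21.5% and 16.6% of all genes. At 24 h 3 members were higher and 0 lower in KO#1, against 6.25% and 3.60%, and 6 of the 10 had an unadjusted p under 0.05. For these groups alone, same-numbered libraries deviated together in all 3 pairs (r from 0.22 to 0.59), and a paired fit of the 2 groups with the number as a replicate block, added after the data were seen, called 7 members higher and 0 lower, where it called 22.0% and 20.5% of 13378 genes. The members it added were Ccnd3, Ccne2, Cdkn2b and Rb1. The share of counts on protein-coding genes was 58.2%, 41.6% and 63.4% in wt replicates 1 to 3 and 50.5%, 41.3% and 63.1% in those of KO#1, and its part in the pairing was not tested. Of 8 feeder fibroblast genes, 1 was higher and 1 lower in KO#1 at 24 h, and 5 were higher and 1 lower in the paired fit. Their summed level was 19.0 to 34.5 CPM in wt cells and 38.7 to 51.8 CPM in KO#1, without overlap, and its part in the differences of the members between these groups was not tested. In the KO#2-labelled libraries 4 were higher and 2 lower at 24 h, against 21.3% and 16.0%. The median over the members at 24 h was 0.83 in KO#1 beside -0.02 over all genes, and 0.30 in the KO#2-labelled libraries beside 0.20. Both clones were compared with the same wt libraries, so that their values are given side by side below and were not treated as independent.

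**Figure D3:**
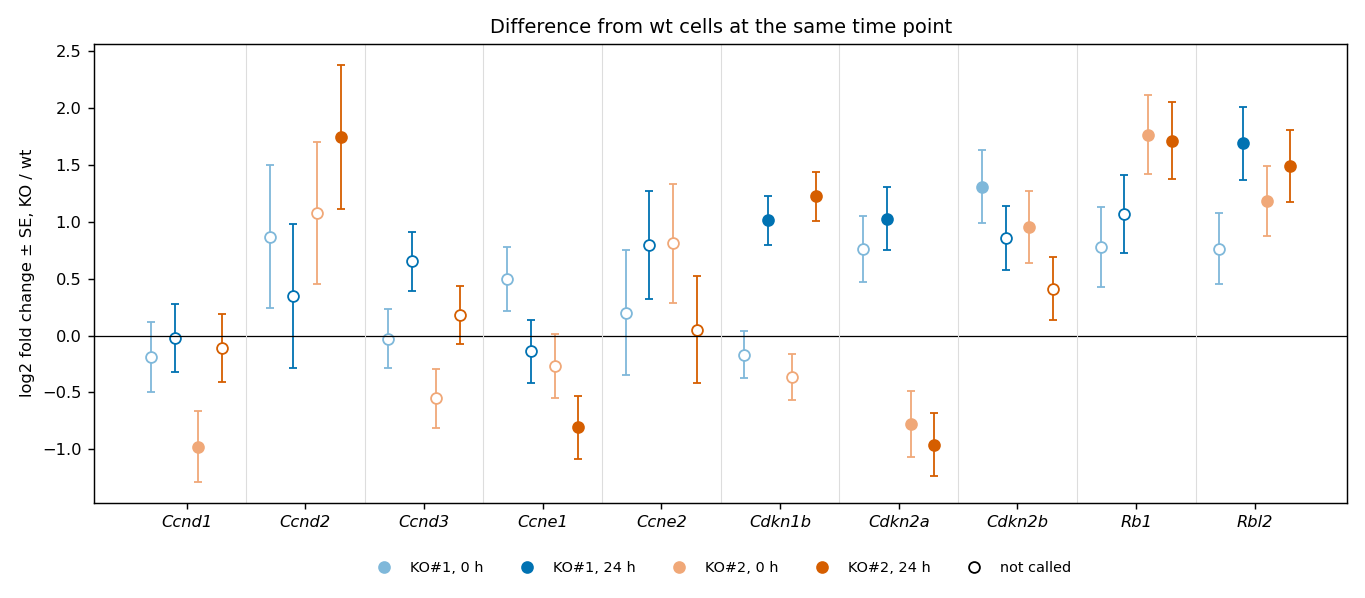
Log2 fold change of each gene in KO#1 (blue) and KO#2-labelled libraries (orange) against wt cells at 0 h (light) and 24 h (dark), with bars of 1 SE. Filled points passed an adjusted p under 0.05. Cdkn2a at 24 h lies at 1.03 in KO#1 and at -0.96 in KO#2-labelled libraries.

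The response to induction itself was compared between lines with an interaction term, a log2 fold change of fold changes. Between KO#1 and wt cells, 0 members differed in either direction by edgeR, where 0.253% of all genes had a higher and 0.138% a lower response. Of the members 1 had an unadjusted p under 0.05, and DESeq2 called 1. Between the KO#2-labelled libraries and wt cells, 1 member had a higher response and 0 a lower one, against 0.951% and 0.517% of all genes. When the KO#2-labelled libraries were compared directly with KO#1, 1 member was higher and 2 were lower at 0 h, against 15.1% and 11.3% of all genes. At 24 h 0 members were higher and 1 was lower, against 19.3% and 16.1%, and 3 had an unadjusted p under 0.05. In that comparison DESeq2 called 2 members in all.

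Ccnd1 encodes cyclin D1, a D-type cyclin whose transcription follows mitogen signals. It lies on chromosome 7 of GRCm38 from 144929931 to 144939925 (ENSMUSG00000070348), and 23.4% of its exon bases are shared with LTO1 on the other strand. At 0 h it was at 46.9, 30.9 and 29.5 CPM in wt cells, 35.3, 31.1 and 27.1 CPM in KO#1 and 11.8, 14.7 and 27.6 CPM in the KO#2-labelled libraries. Levels at 24 h were 63.5, 68.3 and 93.8 CPM in wt cells, 73.0, 67.7 and 81.3 CPM in KO#1 and 98.7, 53.1 and 57.7 CPM in the KO#2-labelled libraries. Every 24 h library thus lay above every 0 h library of its own line. Ccnd1 rose by 1.09 ± 0.31 in wt cells (adjusted p = 0.00743), 1.25 ± 0.31 in KO#1 (adjusted p = 0.00423) and 1.95 ± 0.31 in the KO#2-labelled libraries (adjusted p = 0.000236) on the log2 scale. With library totals in place of TMM factors, the rises in wt cells (0.52) and KO#1 (0.47) were not called. The KO#2-labelled libraries started lower than wt cells at 0 h (-0.98 ± 0.31, adjusted p = 0.0207). That call was lost with library totals alone (-0.48), and without wt 0 h replicate 1 (adjusted p = 0.0843), KO#2 0 h replicate 1 (adjusted p = 0.0954) and KO#2 0 h replicate 2 (adjusted p = 0.0777). After 24 h Ccnd1 overlapped among the 3 lines. Against KO#1 at 0 h the difference did not pass (-0.79 ± 0.31, adjusted p = 0.0646), but it was called by DESeq2 (adjusted p = 0.0428) and without KO#2 0 h replicate 3 (-1.23, adjusted p = 0.0132). With library totals alone that difference was -0.47, where the median of all genes was 0.33.

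Ccnd2 encodes cyclin D2, and lies on chromosome 6 from 127125162 to 127152193 (ENSMUSG00000000184), with 7.86% of its exon bases shared with antisense genes. It was at 32.5, 23.0 and 12.7 CPM in wt cells at 0 h, 71.0, 45.9 and 6.42 CPM in KO#1 and 31.8, 28.6 and 80.6 CPM in the KO#2-labelled libraries. The KO#1 libraries at 0 h thus spread widely, and the lines overlapped. Its levels at 24 h were 10.8, 9.01 and 4.69 CPM in wt cells, 13.3, 12.2 and 5.84 CPM in KO#1 and 42.8, 19.9 and 19.5 CPM in the KO#2-labelled libraries. It was called lower at 24 h in KO#1 (-1.97 ± 0.64, adjusted p = 0.0206), although one 0 h library of KO#1 overlapped the 24 h libraries. This call was lost with only the groups compared in the fit, and without KO#1 0 h replicate 1 (-1.29, adjusted p = 0.152) and KO#1 24 h replicate 3 (adjusted p = 0.0688). In wt cells the 24 h libraries lay below those of 0 h, but the value did not pass (-1.45 ± 0.64, adjusted p = 0.0673). It was called by DESeq2 (adjusted p = 0.035), with library totals alone (adjusted p = 0.00533), with no filter on low counts (adjusted p = 6.35e-05) and with only the groups compared (adjusted p = 0.0112). In the KO#2-labelled libraries the 0 h and 24 h libraries overlapped. At 24 h Ccnd2 was higher in the KO#2-labelled libraries than in wt cells (1.75 ± 0.64, adjusted p = 0.0378), without overlap, and this call was lost without wt 24 h replicate 1 (adjusted p = 0.0544), wt 24 h replicate 2 (adjusted p = 0.0765), wt 24 h replicate 3 (adjusted p = 0.128) and KO#2 24 h replicate 1 (adjusted p = 0.158). The value was 2.84 with library totals alone. Against KO#1 at 24 h the difference was 1.4 ± 0.63 and was not called (adjusted p = 0.0907). It was called with library totals alone (2.57, adjusted p = 0.000733), where the median of all genes was 1.21. It was also called with no filter on low counts (adjusted p = 8.65e-05) and with only the groups compared (adjusted p = 0.0326).

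The level of Ccnd2 moved with that of feeder fibroblast genes. Acta2, Col1a1, Col1a2, Col3a1, Dcn, Lox, Postn and Thy1, which encode mostly matrix and surface proteins of fibroblasts, together made up 109.9 to 389.7 CPM in wt cells at 0 h, 182.9 to 513.6 CPM in KO#1 and 331 to 897.5 CPM in the KO#2-labelled libraries. The sums at 24 h were 19.0 to 34.5 CPM, 38.7 to 51.8 CPM and 70.9 to 218.9 CPM. Over 24 h 6 of the 8 genes fell and 1 rose in wt cells, 6 fell and 1 rose in KO#1, and 3 fell and 0 rose in the KO#2-labelled libraries. The gene that rose in both was Dcn, which was at 0 in all 3 wt libraries at 0 h and at 8.32, 4.61 and 4.44 CPM in those at 24 h. Of the 8, 6 were higher in the KO#2-labelled libraries than in wt cells at 24 h. Dcn was at 0 in 4 libraries and the other 7 in none. The library highest in Ccnd2 was also the highest in this sum in 6 of 6 groups, which held for 51 of the 16619 genes tested (0.307%). The order of the 3 libraries was the same in 4 of 6 groups, as in 4 or more groups for 0.872% of genes, while the other members had the same order in 0 to 3 groups. The part of feeder RNA in the results of Ccnd2, and in the changes over time of the other members, was not tested.

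**Figure D4:**
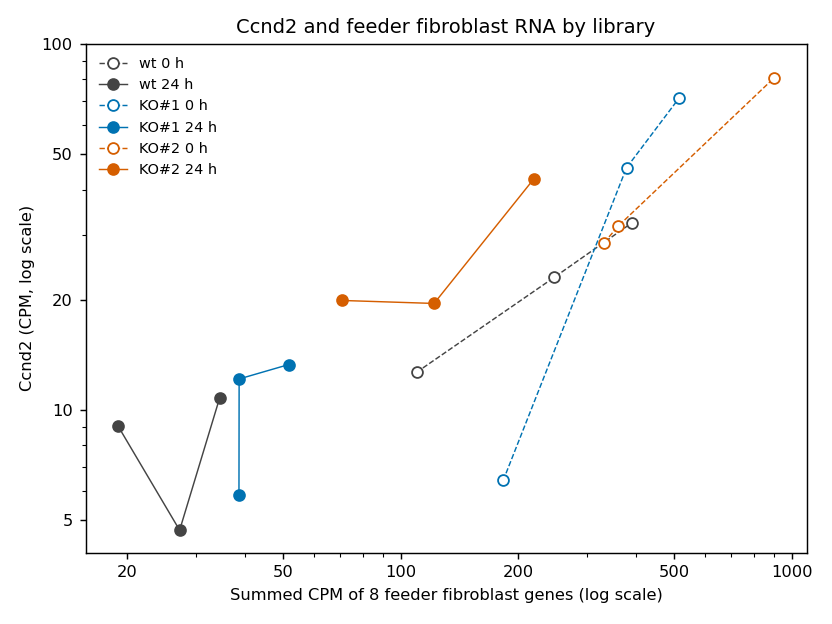
Ccnd2 against the summed level of 8 feeder fibroblast genes in each of the 18 libraries, both in CPM on log axes. Lines join the 3 libraries of a group in order of the sum, open points with broken lines are 0 h and filled points with full lines 24 h. In each group the library farthest to the right is the highest in Ccnd2.

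Ccnd3 encodes cyclin D3 and lies on chromosome 17 from 47505051 to 47599691 (ENSMUSG00000034165), sharing 4.11% of its exon bases with Bysl. Its levels at 0 h were 318, 197 and 180.1 CPM in wt cells, 178, 239 and 265 CPM in KO#1 and 162, 166 and 146 CPM in the KO#2-labelled libraries. At 24 h they were 125, 141 and 151 CPM, 175, 209 and 273 CPM and 173, 183 and 117 CPM in the same order. In wt cells all 24 h libraries lay below all 0 h libraries, whereas in the other lines they overlapped. Ccnd3 fell in wt cells (-0.73 ± 0.26, adjusted p = 0.0259). This call was lost with no filter on low counts, and without wt 0 h replicate 1 (-0.47, adjusted p = 0.154), wt 24 h replicate 1 (adjusted p = 0.0848) and wt 24 h replicate 2 (adjusted p = 0.0585), and the value was -1.31 with library totals alone. A difference of the response from wt cells was called in neither clone, and at 24 h KO#1 lay above wt cells without overlap but did not pass (0.66 ± 0.26, adjusted p = 0.132), except with the paired fit (adjusted p = 0.000446). At 0 h the KO#2-labelled libraries lay below wt cells without overlap, at -0.55 ± 0.26, and did not pass either (adjusted p = 0.0992), but it was called by DESeq2 (adjusted p = 0.0454).

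The make-up of the D-type cyclin RNA was computed within each library as the share of each gene in the sum of the 3, per kilobase of exon, which no scaling between libraries can alter. How large each part of this sum is depends on the exon lengths, given above for the 3 genes. In wt cells at 0 h Ccnd1 took 20.0%, 20.9% and 22.3% of this sum, and at 24 h 46.7%, 46.0% and 52.9%. In KO#1 it went from 21.2%, 17% and 15.7% to 42.1%, 36.4% and 35.2%, and in the KO#2-labelled libraries from 10.3%, 12.4% and 18.9% to 46.4%, 32.9% and 44.2%. The share of Ccnd1 was thus higher at 24 h in every library of every line, by 27.5, 19.9 and 27.3 percentage points in wt cells, KO#1 and the KO#2-labelled libraries. Each of these differences had p = 0.1 in a two-sided exact permutation test, the smallest that 3 against 3 libraries allow, and an adjusted p of 0.191 over the 21 shares compared, so that no share could pass 0.05. The share of Ccnd3 in wt cells was 72.5% ± 0.93 at 0 h and 48.7% ± 2.68 at 24 h (SD, n = 3), again without overlap. At 24 h KO#1 had 37.9% ± 3.66 of Ccnd1 and 59.3% ± 4.78 of Ccnd3, where wt cells had 48.5% ± 3.82 and 48.7% ± 2.68, and neither pair overlapped (exact permutation p = 0.1, adjusted p = 0.191). The share of Ccnd2 was 7.91% ± 1.97 in the KO#2-labelled libraries at 24 h and 2.77% ± 1.34 in wt cells, with the feeder sums given above.

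**Figure D5:**
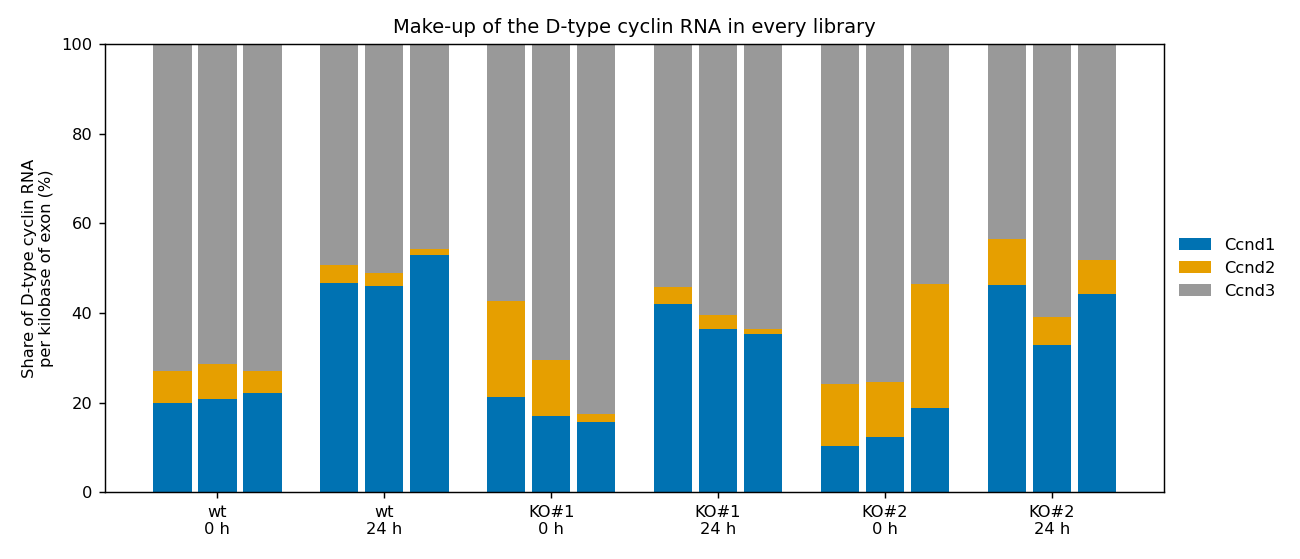
Share of Ccnd1, Ccnd2 and Ccnd3 in the D-type cyclin RNA of each library, in percent of their summed CPM per kilobase of exon. Each bar is 1 library and the groups stand in pairs of 0 h and 24 h for each line. The Ccnd1 share is between 10.3% and 22.3% at 0 h and between 32.9% and 52.9% at 24 h.

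Ccne1 encodes cyclin E1, which activates Cdk2 at the border of G1 and S phase. It lies on chromosome 7 from 38097984 to 38107534 (ENSMUSG00000002068), with no other gene on its exons, and its promoter is the first one printed above. At 0 h Ccne1 was at 39.3, 27.8 and 26.0 CPM in wt cells, 35.3, 32.1 and 62.5 CPM in KO#1 and 23.2, 28.7 and 24.9 CPM in the KO#2-labelled libraries. After 24 h its levels were 193, 210.4 and 282 CPM in wt cells, 154, 198 and 270.4 CPM in KO#1 and 116, 124 and 151 CPM in the KO#2-labelled libraries. The lowest 24 h library of each line was above its highest 0 h library. Ccne1 rose 7.42-fold in wt cells (2.89 ± 0.30, adjusted p = 1.42e-06), 4.76-fold in KO#1 (2.25 ± 0.29, adjusted p = 2.34e-05) and 5.10-fold in the KO#2-labelled libraries (2.35 ± 0.29, adjusted p = 2.14e-05). These calls held in every alternative tried, with 1.5 in KO#1 with library totals alone. At 24 h the level in the KO#2-labelled libraries was lower than in wt cells (-0.81 ± 0.28, adjusted p = 0.0286), without overlap, but the difference in response between these lines was not called (adjusted p = 0.407). With library totals alone this log2 fold change was 0.21, where the median of all genes was 1.24, so that Ccne1 was at -1.03 relative to that median and at -1.01 in the TMM scaling. The call was also lost without wt 24 h replicate 2 (adjusted p = 0.0518), wt 24 h replicate 3 (adjusted p = 0.142), KO#2 24 h replicate 1 (adjusted p = 0.1) and KO#2 24 h replicate 2 (adjusted p = 0.0832). Against KO#1 the KO#2-labelled libraries were lower at 0 h (-0.77 ± 0.28, adjusted p = 0.0495), a call lost under 5 of the 8 alternatives that kept all libraries of the groups, among them library totals alone (-0.46), and without KO#1 0 h replicate 3 (-0.40, adjusted p = 0.298), KO#2 0 h replicate 1 (adjusted p = 0.147), KO#2 0 h replicate 2 (adjusted p = 0.0675) and KO#2 0 h replicate 3 (adjusted p = 0.119). The difference at 24 h did not pass (-0.67 ± 0.28, adjusted p = 0.0667), but it was called by DESeq2 (adjusted p = 0.0431) and with the replicate block (adjusted p = 0.0498) and without KO#1 24 h replicate 1 (adjusted p = 0.0367), and it turned to 0.36 with library totals alone, where the median of all genes was 1.21.

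Ccne2, the second E-type cyclin, lies on chromosome 4 from 11191351 to 11204779 (ENSMUSG00000028212) and shares 17.4% of its exon bases with Ints8. It was at 1.97, 4.13 and 3.5 CPM in wt cells at 0 h, 2.48, 3.34 and 5.48 CPM in KO#1 and 3.49, 8.58 and 5.75 CPM in the KO#2-labelled libraries. Its 24 h levels were 22.8, 15.8 and 7.96 CPM, 40.4, 32.2 and 8.46 CPM and 13.7, 13.9 and 20.8 CPM in the same order. All 24 h libraries again lay above the 0 h libraries of their line, and replicate 3 of wt and of KO#1 was the lowest of its group at 24 h. Ccne2 rose by 2.20 ± 0.53 in wt cells (adjusted p = 0.00254), 2.79 ± 0.53 in KO#1 (adjusted p = 0.000621) and 1.44 ± 0.49 in the KO#2-labelled libraries (adjusted p = 0.0361) on the log2 scale. The call in the KO#2-labelled libraries was lost without KO#2 0 h replicate 1 (adjusted p = 0.157), KO#2 0 h replicate 3 (adjusted p = 0.0916), KO#2 24 h replicate 2 (adjusted p = 0.0502) and KO#2 24 h replicate 3 (adjusted p = 0.136). At neither time was Ccne2 called different between clones and wt cells, and all these groups overlapped, but the paired fit called it higher in KO#1 at 24 h (0.72 ± 0.16, adjusted p = 0.00659). Per kilobase of exon, Ccne2 stayed below Ccne1 in all 6 groups, at 4.44 ± 2.12 against 85.8 ± 17.8 CPM per kilobase in wt cells at 24 h.

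Cdkn1b encodes p27Kip1, an inhibitor of cyclin E and Cdk2. It lies on chromosome 6 from 134920401 to 134925513 (ENSMUSG00000003031), with no other gene on its exons. At 0 h Cdkn1b was at 39.3, 41.9 and 47.6 CPM in wt cells, 36.5, 39.2 and 39.3 CPM in KO#1 and 29.6, 31.8 and 38.9 CPM in the KO#2-labelled libraries. By 24 h it was at 4.92, 3.60 and 4.14 CPM in wt cells, 8.45, 7.66 and 9.57 CPM in KO#1 and 7.52, 11.3 and 10.9 CPM in the KO#2-labelled libraries. Every library of either clone lay above every wt library at 24 h. At 0 h the wt libraries were the higher ones, but the lowest wt and the highest KO#1 library were level. Cdkn1b fell by 10.1 times in wt cells (-3.34 ± 0.23, adjusted p = 4.69e-08), 4.47 times in KO#1 (-2.16 ± 0.22, adjusted p = 2.08e-06) and 3.36 times in the KO#2-labelled libraries (-1.75 ± 0.21, adjusted p = 1.71e-05). These falls were called in every alternative tried. At 0 h neither clone was called different from wt cells (adjusted p = 0.699 and 0.161). At 24 h Cdkn1b exceeded its wt level in KO#1 (1.01 ± 0.22, adjusted p = 0.00503) and in the KO#2-labelled libraries (1.23 ± 0.22, adjusted p = 0.00034). The latter was 2.25 with library totals alone. The call in KO#1 was lost with library totals alone (adjusted p = 0.0859).

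The response of Cdkn1b to induction was the one response of the set that was called different from wt cells. The interaction was 1.59 ± 0.30 for the KO#2-labelled libraries (adjusted p = 0.013), that is a smaller fall, and this call was lost without KO#2 0 h replicate 2 (adjusted p = 0.0521) and wt 24 h replicate 2 (adjusted p = 0.0523). For KO#1 it was 1.18 ± 0.30 and did not pass with edgeR (adjusted p = 0.0952), whereas DESeq2 called it (adjusted p = 0.00752). Of the 9 naive pluripotency genes, among them Klf2, Esrrb and Tfcp2l1, 4 were also higher than in wt cells at 24 h in KO#1, 5 in the KO#2-labelled libraries, and 0 were lower in either. The paired fit called 7 higher and 1 lower in KO#1. Their summed level at 24 h, with 1 KO#2-labelled library inside the wt range, was 288.3 to 299.6 CPM in wt cells, 428.1 to 490.8 CPM in KO#1 and 288.5 to 612.3 CPM in the KO#2-labelled libraries. Of the 8 formative and primed genes, 4 were lower in KO#1 and 2 in the KO#2-labelled libraries, and the paired fit called 1 higher and 7 lower in KO#1. The part of these differences in the Cdkn1b level was not tested.

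Cdkn2a encodes the CDK4 and CDK6 inhibitor p16Ink4a and, from the upstream start site, p19Arf, which acts on the p53 pathway. The gene lies on chromosome 4 from 89274471 to 89294653 (ENSMUSG00000044303), with no other gene on its exons. At 0 h it was at 10.8, 9.36 and 5.33 CPM in wt cells, 15.1, 14.8 and 12.5 CPM in KO#1 and 4.71, 5.44 and 4.36 CPM in the KO#2-labelled libraries. Levels at 24 h were 15.8, 9.71 and 8.64 CPM, 28.9, 19.9 and 21 CPM and 5.59, 5.38 and 6.64 CPM in the same order. The clones lay on opposite sides of wt cells at 24 h, with no overlap among the 3 lines. Cdkn2a was higher than in wt cells in KO#1 (1.03 ± 0.28, adjusted p = 0.0223), a call lost with library totals alone, with only the groups compared in the fit, and without wt 24 h replicate 2 (adjusted p = 0.0926), wt 24 h replicate 3 (adjusted p = 0.0884) and KO#1 24 h replicate 1 (adjusted p = 0.0889). It was lower than in wt cells in the KO#2-labelled libraries (-0.96 ± 0.28, adjusted p = 0.0125), a call lost without wt 24 h replicate 1 (adjusted p = 0.0967). With library totals alone the latter log2 fold change turned to 0.08, which was -1.17 relative to the median of all genes. The direct comparison of the KO#2-labelled libraries with KO#1 gave -1.54 ± 0.29 at 0 h (adjusted p = 0.00134) and -1.99 ± 0.28 at 24 h (adjusted p = 8.3e-05), and both calls held in every alternative tried. The latter was -0.90 with library totals alone, where the median of all genes was 1.21. At 24 h these libraries also differed from KO#1 in the share of counts on protein-coding genes (82.3% to 84.7% against 41.3% to 63.1%) and in the summed feeder genes (70.9 to 218.9 against 38.7 to 51.8 CPM, with 3 of 8 called higher and 0 lower). The part of either in the differences of the members between the clones was not tested. At 0 h the value against wt cells was 0.77 ± 0.29 in KO#1 and not called (adjusted p = 0.137). In the KO#2-labelled libraries it was -0.78 ± 0.29 and called (adjusted p = 0.0422), with overlap of the groups, and this call was lost under 4 of the 8 alternatives that kept all libraries of the groups, among them library totals alone (-0.31), and without wt 0 h replicate 1 (adjusted p = 0.13), wt 0 h replicate 2 (adjusted p = 0.132), KO#2 0 h replicate 1 (adjusted p = 0.0979), KO#2 0 h replicate 2 (adjusted p = 0.06) and KO#2 0 h replicate 3 (adjusted p = 0.113).

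Over time Cdkn2a was called in KO#1 (0.72 ± 0.28, adjusted p = 0.0458), and this call was lost in each of the 6 fits that left out 1 library of the comparison (adjusted p from 0.0525 to 0.196). With library totals alone the log2 fold change of Cdkn2a in KO#1 was -0.09, where the median of all genes was -0.78, and the call was also lost with no filter on low counts and with only the groups compared. In wt cells and in the KO#2-labelled libraries the levels at the 2 times overlapped.

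Cdkn2b encodes p15Ink4b, an inhibitor of CDK4 and CDK6 known as a target of TGF-beta signals. It lies on chromosome 4 from 89306299 to 89311039 (ENSMUSG00000073802), beside Cdkn2a and with no other gene on its exons. At 0 h it was at 2.29, 2.48 and 1.58 CPM in wt cells, 6.77, 5.22 and 3.73 CPM in KO#1 and 3.90, 4.40 and 3.83 CPM in the KO#2-labelled libraries. Its levels at 24 h were 5.80, 4.61 and 7.72 CPM, 9.40, 9.91 and 13.7 CPM and 7.47, 9.01 and 7.77 CPM in the same order. Each line was higher at 24 h than at 0 h without overlap, and at 0 h all wt libraries lay below those of both clones. Cdkn2b rose by 1.54 ± 0.32 in wt cells (adjusted p = 0.000734), 1.09 ± 0.29 in KO#1 (adjusted p = 0.00686) and 1.00 ± 0.28 in the KO#2-labelled libraries (adjusted p = 0.0138) on the log2 scale. The last call was lost without KO#2 0 h replicate 1 (adjusted p = 0.0548), and none of the 3 was called with library totals alone (0.95, 0.32 and 0.97). At 0 h Cdkn2b was higher than in wt cells in KO#1 (1.31 ± 0.32, adjusted p = 0.0178), a call lost with library totals alone, with only the groups compared in the fit, and without wt 0 h replicate 3 (adjusted p = 0.123) and KO#1 0 h replicate 1 (adjusted p = 0.0823). It was also higher in the KO#2-labelled libraries (0.95 ± 0.31, adjusted p = 0.0244), a call lost with no filter, with only the groups compared, and without wt 0 h replicate 1 (adjusted p = 0.0517), wt 0 h replicate 3 (adjusted p = 0.124) and KO#2 0 h replicate 2 (adjusted p = 0.0645). At 24 h the difference in KO#1 was 0.86 ± 0.28 and did not pass (adjusted p = 0.0614), but it was called by DESeq2 (adjusted p = 0.0219) and with the paired fit (adjusted p = 0.00177) and without wt 24 h replicate 3 (adjusted p = 0.0408). The KO#2-labelled libraries overlapped wt cells at that time. Unlike Cdkn2a, Cdkn2b was not called different between the clones, either at 0 h (adjusted p = 0.373) or at 24 h (adjusted p = 0.219).

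Rb1 encodes the retinoblastoma protein, the pocket protein that binds the activating E2F factors. It lies on chromosome 14 from 73183673 to 73325822 (ENSMUSG00000022105), and 14.9% of its exon bases are shared with other genes, among them Gm17233 on the same strand. At 0 h it was at 2.95, 5.60 and 6.25 CPM in wt cells, 11.3, 6.68 and 8.46 CPM in KO#1 and 22.2, 17.8 and 12.7 CPM in the KO#2-labelled libraries. Levels at 24 h were 4.57, 3.00 and 4.51 CPM, 8.01, 6.43 and 11.1 CPM and 14.3, 17.3 and 8.38 CPM in the same order. Within each line the 2 times overlapped, and no change over time was called. All libraries of both clones lay above the wt libraries of the same time. Rb1 was higher than in wt cells in the KO#2-labelled libraries at 0 h (1.77 ± 0.35, adjusted p = 0.0012) and at 24 h (1.72 ± 0.34, adjusted p = 0.000912). These calls held in every alternative in which Rb1 was tested, and the latter was 2.74 with library totals alone. In KO#1 the differences were 0.78 ± 0.35 at 0 h (adjusted p = 0.218) and 1.07 ± 0.34 at 24 h (adjusted p = 0.0545) and did not pass. The latter was called by DESeq2 (adjusted p = 0.0215), with RLE size factors (adjusted p = 0.0483), with scaling on protein-coding genes (adjusted p = 0.045), with no filter on low counts (adjusted p = 0.0312), with only the groups compared (adjusted p = 0.0338) and with the paired fit (adjusted p = 0.00111), and without KO#1 24 h replicate 2 (adjusted p = 0.0497). The KO#2-labelled libraries were higher than KO#1 at 0 h (0.98 ± 0.33, adjusted p = 0.0369), a call lost with only the groups compared in the fit and without KO#1 0 h replicate 2 (adjusted p = 0.137), KO#1 0 h replicate 3 (adjusted p = 0.092), KO#2 0 h replicate 1 (adjusted p = 0.149) and KO#2 0 h replicate 2 (adjusted p = 0.0718).

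Rbl2 encodes p130, a pocket protein that binds the repressive E2F factors in quiescent and differentiated cells. It lies on chromosome 8 from 91070057 to 91123844 (ENSMUSG00000031666), and 21% of its exon bases are shared with Aktip and Gm45464. At 0 h it was at 4.92, 5.23 and 6.92 CPM in wt cells, 15.0, 5.42 and 8.81 CPM in KO#1 and 14.3, 11.8 and 13.3 CPM in the KO#2-labelled libraries. Its levels at 24 h were 2.29, 2.90 and 2.59 CPM, 8.45, 8.78 and 7.83 CPM and 6.84, 9.32 and 5.64 CPM in the same order. The wt libraries at 24 h were the 3 lowest of all 18. Rbl2 fell in wt cells (-1.16 ± 0.33, adjusted p = 0.00692), a call that held in every alternative tried. In KO#1 the times overlapped, and in the KO#2-labelled libraries Rbl2 fell (-0.85 ± 0.30, adjusted p = 0.041). The latter call was lost in 5 of the 6 fits without 1 library, namely without KO#2 0 h replicate 1 (adjusted p = 0.126), KO#2 0 h replicate 2 (adjusted p = 0.0573), KO#2 0 h replicate 3 (adjusted p = 0.0892), KO#2 24 h replicate 1 (adjusted p = 0.0978) and KO#2 24 h replicate 3 (adjusted p = 0.178), and under 4 of the 8 alternatives that kept all libraries. No difference in response from wt cells was called (adjusted p = 0.499 in KO#1, and 0.693 with KO#2). The fall in wt cells was -1.81 with library totals alone. At 24 h Rbl2 exceeded its wt level in KO#1 (1.69 ± 0.32, adjusted p = 0.00179) and in the KO#2-labelled libraries (1.49 ± 0.32, adjusted p = 0.00145), without overlap, and both calls held in every alternative tried, at 2.56 in the latter with library totals alone. At 0 h it was higher in the KO#2-labelled libraries (1.19 ± 0.31, adjusted p = 0.00735), again in every alternative. In KO#1 at 0 h the difference did not pass (0.77 ± 0.31, adjusted p = 0.172), except without KO#1 0 h replicate 2 (adjusted p = 0.0491). The share of counts on protein-coding genes, given above, was also higher in the KO#2-labelled libraries than in wt cells at both times, and of the 8 feeder genes 4 were called higher there at 0 h and 6 at 24 h. The part of either in the differences of Rb1, Rbl2 and the other members between these libraries and wt cells was not tested.

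The other genes of the same step were followed in a list of 24 (CDKs, further inhibitors, E2F and DP factors, and regulators such as Skp2 and Cdc25a), of which all were tested. In wt cells 9 rose and 5 fell over 24 h, in KO#1 7 rose and 1 fell, and in the KO#2-labelled libraries 8 rose and 2 fell. Of all genes, 26.0% rose and 24.7% fell in wt cells, 20.1% and 20.6% in KO#1, and 12.7% and 13.3% in the KO#2-labelled libraries. Over the 24 genes the median log2 fold changes were 0.33, 0.38 and 0.52, beside 0.03, 0.00 and -0.03 over all genes tested. Cdk4, Skp2, Cks1b and Cdkn1a were called in the same direction in each line. Cks1b, the cofactor of the ubiquitin ligase subunit Skp2 that marks p27Kip1 for degradation, rose by 2.58 ± 0.36, 2.30 ± 0.36 and 1.67 ± 0.35 in wt cells, KO#1 and the KO#2-labelled libraries (adjusted p = 2.76e-05, 0.000129 and 0.00212), from 37.2 ± 13.1 to 224 ± 44.5 CPM (SD, n = 3) in wt cells. Skp2 itself rose by 1.24 ± 0.25, 0.94 ± 0.24 and 0.68 ± 0.24 (adjusted p = 0.000571, 0.00594 and 0.0442). The Skp2 call in the KO#2-labelled libraries was lost with no filter on low counts (adjusted p = 0.0883) and with at least 10 counts in every library (adjusted p = 0.0519) and without KO#2 0 h replicate 1 (adjusted p = 0.146), KO#2 0 h replicate 2 (adjusted p = 0.124), KO#2 24 h replicate 1 (adjusted p = 0.0778), KO#2 24 h replicate 2 (adjusted p = 0.0702) and KO#2 24 h replicate 3 (adjusted p = 0.12). Cdk4, the partner of the D-type cyclins, rose by 0.91 ± 0.24, 0.74 ± 0.24 and 0.70 ± 0.24 (adjusted p = 0.00428, 0.0191 and 0.0357). The Cdk4 call was lost in KO#1 with no filter on low counts (adjusted p = 0.071) and without KO#1 0 h replicate 1 (adjusted p = 0.0846), KO#1 0 h replicate 2 (adjusted p = 0.0555) and KO#1 24 h replicate 3 (adjusted p = 0.0733). In the KO#2-labelled libraries it was lost with no filter on low counts (adjusted p = 0.12) and with only the groups compared (adjusted p = 0.0695) and without KO#2 0 h replicate 1 (adjusted p = 0.178), KO#2 0 h replicate 2 (adjusted p = 0.0543), KO#2 24 h replicate 2 (adjusted p = 0.0539) and KO#2 24 h replicate 3 (adjusted p = 0.206). With library totals alone the rise of Cks1b in KO#1 was 1.48 and the fall of Cdkn1a in wt cells -1.53. None of the Cdk4 and Skp2 rises was called there (Cdk4 0.32 in wt cells, Skp2 0.62 in wt cells and 0.15 in KO#1), and that of Cdk4 in KO#1 turned to -0.03. Cdkn1a, which encodes the inhibitor p21Cip1, fell in wt cells (-1.0 ± 0.34, adjusted p = 0.0205), KO#1 (-1.72 ± 0.35, adjusted p = 0.000997) and the KO#2-labelled libraries (-1.24 ± 0.34, adjusted p = 0.0123). Its call was lost in wt cells without wt 0 h replicate 1 (-0.49, adjusted p = 0.201), wt 24 h replicate 1 (adjusted p = 0.0541) and wt 24 h replicate 2 (adjusted p = 0.0657), and in the KO#2-labelled libraries without KO#2 24 h replicate 3 (adjusted p = 0.0765).

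Against wt cells, 0 of these 24 genes were called in KO#1 at 0 h by edgeR, with 6 at an unadjusted p under 0.05, while 3 were higher and 9 lower in the KO#2-labelled libraries, where 21.5% and 16.6% of all genes were. At 24 h 2 were higher and 2 lower in KO#1, against 6.25% and 3.60% of all genes (8 and 6 in the paired fit, against 22.0% and 20.5%), and 2 higher and 6 lower in the KO#2-labelled libraries, against 21.3% and 16.0%. A pair of inhibitor genes was called in both clones at 24 h. Cdkn1c, which encodes p57Kip2, was at 38.5, 35.7 and 42.5 CPM in wt cells, 6.10, 4.70 and 11.2 CPM in KO#1 and 3.24, 5.41 and 8.07 CPM in the KO#2-labelled libraries. It was lower in both, with log2 fold changes of -2.40 ± 0.50 (adjusted p = 0.00417) and -2.80 ± 0.51 (adjusted p = 0.000439), the opposite direction to Cdkn1b, and the latter was -1.79 with library totals alone. Cdkn2c, which encodes p18Ink4c, was at 0.821, 0.401 and 0.494 CPM in wt cells, 2.42, 1.43 and 3.11 CPM in KO#1 and 1.41, 1.90 and 0.955 CPM in the KO#2-labelled libraries, and was higher in both, at 1.99 ± 0.44 (adjusted p = 0.00641) and 1.27 ± 0.44 (adjusted p = 0.0299). The Cdkn2c call in the KO#2-labelled libraries was lost with no filter on low counts (adjusted p = 0.0668) and with only the groups compared (adjusted p = 0.0615) and without wt 24 h replicate 2 (adjusted p = 0.102), wt 24 h replicate 3 (adjusted p = 0.0948), KO#2 24 h replicate 1 (adjusted p = 0.0593) and KO#2 24 h replicate 2 (adjusted p = 0.123), and the value was 2.30 with library totals alone. In the direct comparison of the KO#2-labelled libraries with KO#1, 3 were higher and 8 lower at 0 h, against 15.1% and 11.3% of all genes, and 3 higher and 6 lower at 24 h, against 19.3% and 16.1%. The response of 0 of the 24 genes differed between KO#1 and wt cells by edgeR, with 4 at an unadjusted p under 0.05, and between the KO#2-labelled libraries and wt cells 1 differed in each direction, against 0.951% and 0.517% of all genes.

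Among the members themselves, log2 CPM over the 18 libraries gave Pearson's r = -0.93 for Ccne1 and Cdkn1b, 0.86 for Ccnd1 and Ccne1, and 0.80 for Rb1 and Rbl2. These are descriptions over libraries that fall into 2 times and 3 lines. Outside the set, the genes with the pattern most like each member were taken from 10705 candidates with an average log2 CPM of at least 2. Closest to Ccne1 were Twf2 (r = 0.98) and Sqle (0.98), and to Cdkn1b Mitf (0.98) and Jdp2 (0.97). For Ccnd1 they were Slc9a3r1 (0.94) and Tmem88 (0.94), and for Ccne2 BC055324 and Aasdhppt (both 0.97). Ccnd2 was most like Lbh (0.91) and Timp2 (0.90), and Ccnd3 like Tpst2 (0.90) and Efna4 (0.86). For Cdkn2a they were Nenf (0.95) and Cmc2 (0.94), for Cdkn2b Gpd2 (0.93) and Capn2 (0.91), for Rb1 RP24-301O17.1 and Btbd18 (both 0.91), and for Rbl2 Sos2 (0.94) and Fam161a (0.94).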

How the data were processed

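The authors deposited counts, whole numbers of reads per gene that are not normalized, for 45706 genes in 18 libraries; per the study's methods they made stranded libraries of total RNA, removed ribosomal sequences, aligned paired reads to GRCm38 with STAR, marked duplicates and quantified with StringTie and Salmon, with DESeq2 for their own tests. The annotation release and the use of strand in counting are not given in the sources used here, so reads of a gene and of one on its other strand may be mixed where exons overlap. Total RNA without selection of poly(A) leaves noncoding RNA in the totals.

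Positions come from GENCODE M21 (45143 identifiers matched). R 4.3.3 with edgeR 4.0.16 was used. Genes were filtered with filterByExpr by group (minimum count 10, 16619 genes), scaled by TMM, and fitted in 1 quasi-likelihood model with a mean for each of the 6 groups over all 18 libraries (common dispersion 0.097, prior degrees of freedom 6.39). SE was taken as the size of the log2 value over the root of its F statistic. Log2 CPM used a prior count of 2. The steps were tested on simulated data. Alternatives were DESeq2 1.42.0, RLE size factors, library totals, scaling on protein-coding genes, no filter, 10 counts in every library, an adjusted p under 0.01, only the groups compared, a replicate block and leaving out each library. Deviations of same-numbered libraries from their group means were correlated over genes as a check of pairing, and all 3 pairs had r over 0.1 in KO#1 against wt cells at 24 h alone. For that comparison a paired fit of the 2 groups with the replicate number as a block was added after the data were seen. It leaves few residual degrees of freedom per gene. No 2 libraries had identical counts (0 pairs).

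All members are named. Other G1/S genes are named where called in all 3 lines over time or in both clones at 1 time, and the 2 genes most like a member by Pearson's r. The members and lists were chosen with earlier results of these data known. Python 3.11.15 with SciPy 1.17.1 and matplotlib 3.10.9 drew figures and ran permutation tests. The floor of 3 counts covers counting error only, while SD and SE are taken over libraries.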

Additional observations from a re-analysis of the deposited data

Results flagged for a closer look

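The results below were picked out because the change over time, or the level at one time, differed between lines in a test of the difference itself (edgeR interaction term, or direct comparison of the clones). The response of Cdkn1b to induction was higher in the KO#2-labelled libraries than in wt cells by 1.59 on the log2 scale (adjusted p = 0.013), from a mean of 33.4 ± 4.85 to 9.93 ± 2.10 CPM (SD, n = 3) against 43.0 ± 4.22 to 4.22 ± 0.664 CPM. This call was lost without KO#2 0 h replicate 2 (adjusted p = 0.0521) and wt 24 h replicate 2 (adjusted p = 0.0523). For Cdkn1c the response in the KO#2-labelled libraries differed by -3.36 (adjusted p = 0.0324), with 2.93 ± 2.18 and 5.58 ± 2.42 CPM at the 2 times against 2.30 ± 1.41 and 38.9 ± 3.38 CPM in wt cells. That call was lost in each of the fits without 1 of 9 libraries, with adjusted p from 0.0527 to 0.117. For E2f2, an activating E2F factor chosen after its values were seen, it differed by 2.64 (adjusted p = 0.0342), with 2.52 ± 0.641 and 9.88 ± 4.90 CPM against 8.83 ± 5.43 and 5.22 ± 0.536 CPM, and was lost in the fits without 1 of 8 libraries, with adjusted p from 0.0525 to 0.107.

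Between the clones at 0 h, the KO#2-labelled libraries differed from KO#1 by -0.77 in Ccne1 (adjusted p = 0.0495), by -1.54 in Cdkn2a (adjusted p = 0.00134) and by 0.98 in Rb1 (adjusted p = 0.0369) on the log2 scale. In the fits without 1 library, that of Ccne1 was lost in 4 (adjusted p from 0.0675 to 0.298, and -0.40 on the log2 scale without KO#1 0 h replicate 3) and that of Rb1 in 4 (adjusted p from 0.0718 to 0.149). At 24 h the difference in Cdkn2a was -1.99 (adjusted p = 8.3e-05), with 5.38 to 6.64 CPM against 19.9 to 28.9 CPM in KO#1, and it was -0.90 with library totals alone.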

How the results depend on the processing

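Of the 40 calls of a member in a comparison, 18 held at an adjusted p under 0.05 in every alternative, 15 were lost with library totals alone and 17 in at least 1 fit without 1 library. The lowest total was 3466436 counts, in a wt library at 0 h, and the part of depth in the values of the low members was not tested. With library totals the median change over all genes tested went from 0.20 to 1.24 in the KO#2-labelled libraries against wt cells at 24 h, from 0.14 to 1.21 against KO#1 at 24 h, from 0.00 to -0.78 over time in KO#1 and from 0.03 to -0.58 over time in wt cells. There the log2 fold change turned to -0.087 for Cdkn2a and -0.028 for Cdk4 over time in KO#1, to 0.21 for Ccne1 and 0.076 for Cdkn2a in the KO#2-labelled libraries against wt cells at 24 h, and to 0.36 for Ccne1 against KO#1 at 24 h. Relative to the median of all genes each of these kept its sign. TMM scaling likewise takes most genes as unchanged, so that this cannot tell which scaling is right.

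Counts of called members moved as follows. An adjusted p under 0.01 asks for a smaller p by its construction, and the cause was not tested for the other settings. An adjusted p under 0.01 left 3 over time in the KO#2-labelled libraries, 0 in KO#1 against wt cells at 0 h, 2 in the KO#2-labelled libraries at 0 h and 3 at 24 h, 0 for their response and 1 against KO#1 at 0 h. At least 10 counts in every library gave 0, 2 and 1 for KO#1 against wt cells, the KO#2-labelled libraries against wt cells and against KO#1 at 0 h, and fitting only the groups compared gave 0, 3 and 1 there and 2 against KO#1 at 24 h. Library totals gave 0 in KO#1 against wt cells at 0 h, 1 at 24 h and 6 in the comparison of the clones at 24 h. DESeq2 gave 5 in KO#1 against wt cells at 24 h, 1 for the response of KO#1 and 2 between the clones at 24 h, and no filter on low counts also gave 2 there. Without 1 library the counts ranged from 3 to 5 over time in the KO#2-labelled libraries, 0 to 2 in KO#1 and 2 to 4 in the KO#2-labelled libraries against wt cells at 0 h, 0 to 1 for the response of the latter, and 1 to 3 and 1 to 2 between the clones at 0 h and 24 h.

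Shares of D-type cyclins without division by length turned in sign for Ccnd2 in KO#1 (-0.17 percentage points) and for Ccnd3 in the KO#2-labelled libraries (-0.38) against wt cells at 24 h. Without 1 library these ranged from -0.71 to 0.78 and from -2.78 to 5.88, and the Ccnd3 share against wt cells at 0 h ranged from -8.56 to 3.94 (KO#1) and -7.97 to 3.17 (KO#2-labelled libraries). In all 4 comparisons the groups overlapped in the main values.

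The replicate numbers come from the labels alone. Of 45 pairs of libraries with the same number, 16 deviated together with r over 0.1 (mean 0.05, from -0.26 to 0.59), and KO#1 and wt cells at 24 h was the one comparison in which all 3 pairs did (r from 0.22 to 0.59). The numbers were taken to pair the samples there and in no other comparison. The replicate block in these 2 groups alone, added after the data were seen, called 7 members in place of 3, and 5693 of 13378 genes where the same groups without it gave 1841 and the model of all groups 1636. With the number as a replicate block in the model of all groups, 1 of the 40 calls was lost, Rbl2 over time in the KO#2-labelled libraries (adjusted p = 0.0505), and 2 members were called between the clones at 24 h in place of 1, the added one being Ccne1 (-0.65, adjusted p = 0.0498).

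The count over all genes moved by more than 1.5 times from 65 for the response of KO#1, to 276 with DESeq2, 307 with no filter, 4 with library totals, 5 at an adjusted p under 0.01 and 6 to 39 without 1 library. For the response of the KO#2-labelled libraries it moved from 244 to 1340, 1717, 801 and 32 under the same settings, to 369 with scaling on protein-coding genes, to 446 with the replicate block and to 51 to 563 without 1 library. Against wt cells at 24 h, library totals gave 10203 in place of 6198 for the KO#2-labelled libraries and 1088 in place of 1636 for KO#1, and between the clones 9977 in place of 5877. In KO#1 against wt cells at 0 h, 1108 became 441 with only the groups compared. An adjusted p under 0.01 gave 3995 of 6774 over time in KO#1, 2275 of 4324 over time in the KO#2-labelled libraries, 501 of 1108 and 805 of 1636 for KO#1 against wt cells at 0 h and 24 h, 3122 of 6326 and 3595 of 6198 for the KO#2-labelled libraries, and 1913 of 4393 and 3401 of 5877 between the clones. At least 10 counts in every library gave 2612 over time in the KO#2-labelled libraries, 478 and 822 for KO#1, 3935 and 4070 for the KO#2-labelled libraries against wt cells, and 2926 between the clones at 0 h. Without 1 library, the count fell as low as 2534 over time in the KO#2-labelled libraries, 598 and 1028 in KO#1 against wt cells at 0 h and 24 h, and 2602 between the clones at 0 h.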
